A study of Mus musculus with 2 samples.

Results

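The genes described here encode parts of the striated muscle thin filament and of its anchor: skeletal muscle actin (Acta1), the muscle α-actinins (Actn2 and Actn3) and the skeletal troponins. They were taken from the deposited table by their Entrez gene identifiers, matched to symbols, as Acta1, Actn2, Actn3 and every troponin gene in it, which gave 9 of 628 genes. The set was selected on the FPKM of both libraries, with earlier results of these data known, and the table itself holds only genes whose 2 values differ, so the values below are a description and carry no test. The study sequenced the mRNA of brown fat from C57BL/6 mice as 1 library labelled 3bKO and 1 labelled fl/fl, the usual way of writing a floxed allele. Mice of both genotypes had been given a high-fat diet of 60% for 20 weeks. The labels spell out neither the deleted gene nor a Cre line, and give no sex, no age and no number of animals behind a library. Myf5 and D3b appear in the name given to the table, but nothing says which library either stands for. Genotypes were therefore taken from the column headings, which hold the sample titles, and every direction below rests on those headings.

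Contraction of striated muscle is switched on by calcium at the thin filament, a polymer of actin with tropomyosin along it and a troponin complex at regular steps. In that complex troponin C binds calcium, troponin I holds back the interaction of actin with myosin, and troponin T ties the complex to tropomyosin. The α-actinins cross-link the ends of actin filaments at the Z-disc, the border of the sarcomere. Slow and fast muscle fibres use different genes for each troponin subunit, and Actn3 is the α-actinin of fast fibres, whereas Actn2 is found in all skeletal fibres and in the heart. Brown adipocytes and skeletal muscle share part of their embryonic origin, but a brown adipocyte has no sarcomere.

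All 9 genes were higher in the 3bKO library. They summed to 1439 FPKM in 3bKO and 38.3 FPKM in fl/fl, where FPKM are the fragments of a gene per length of transcript and per number of fragments mapped. That was 4.93% of the summed FPKM of the table in 3bKO and 0.177% in fl/fl. All 9, with Tnnt1 set against the table's lowest value of 0.01 FPKM, were more than 2-fold higher in 3bKO, beside 47.1% of the 628 genes in the table, and 81.5% of the table was higher in 3bKO at any ratio. With 1 library per genotype no difference here has a replicate check, and each ratio is between 2 libraries. In bulk tissue, more cells of a type and more RNA per cell cannot be told apart.

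The stretches upstream of 4 of these genes are shown because they differ in form (actin, slow and fast troponin C, slow troponin T) and yet all 4 genes were far higher in 3bKO. Sequences are from RefSeq on GRCm38.p6 (mm10 is the same assembly without its patches) and cover the 250 bases before the annotated start, read 5′ to 3′ on the strand of the gene. Capitals mark matches on either strand to 5 motifs: the CArG box (the site of serum response factor), the MEF2 site, the E-box CANNTG (the site of MyoD-type factors, among many others), the M-CAT element CATTCC and the TATA box TATAAA. No match overlapped a match to another of these motifs. Acta1 lies at chr8:123894776-123895025 on the minus strand, Tnnc2 at chr2:164779735-164779984 on the minus strand, Tnnc1 at chr14:31208062-31208311 on the plus strand, and Tnnt1 at chr7:4515976-4516225 on the minus strand.
Acta1: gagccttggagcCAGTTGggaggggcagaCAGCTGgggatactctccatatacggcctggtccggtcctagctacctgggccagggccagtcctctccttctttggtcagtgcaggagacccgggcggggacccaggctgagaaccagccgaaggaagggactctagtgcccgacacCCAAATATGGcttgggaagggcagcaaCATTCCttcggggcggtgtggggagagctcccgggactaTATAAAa
Tnnc2: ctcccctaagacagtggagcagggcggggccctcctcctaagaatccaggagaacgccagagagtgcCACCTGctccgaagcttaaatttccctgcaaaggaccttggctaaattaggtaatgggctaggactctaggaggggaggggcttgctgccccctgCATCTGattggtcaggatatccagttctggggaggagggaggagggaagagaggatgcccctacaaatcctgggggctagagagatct
Tnnc1: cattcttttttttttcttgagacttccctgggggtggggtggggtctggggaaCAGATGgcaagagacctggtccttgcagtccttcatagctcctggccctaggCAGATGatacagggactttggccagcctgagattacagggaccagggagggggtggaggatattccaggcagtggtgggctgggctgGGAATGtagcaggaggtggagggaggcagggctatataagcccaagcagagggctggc
Tnnt1: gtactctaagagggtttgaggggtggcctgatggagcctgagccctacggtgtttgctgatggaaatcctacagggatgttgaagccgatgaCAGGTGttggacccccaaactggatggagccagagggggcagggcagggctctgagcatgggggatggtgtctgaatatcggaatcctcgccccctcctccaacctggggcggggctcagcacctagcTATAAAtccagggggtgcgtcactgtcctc
Of the 9 genes, 6 had such a stretch in the RefSeq table, in 7 windows, since Tnni1 has 2 starts. Those of Actn3, Tnni2 and Tnnt3 were not used here. The CArG box was found in Acta1 alone, from 73 to 64 bases before the start, and 1.47% of 32851 windows of the same length hold one. The M-CAT element was found in Acta1 and Tnnc1, beside 12.6% of all windows, and TATAAA in Acta1 and Tnnt1, beside 12.4%. The TATAAA match lay from 7 to 2 bases before the annotated start in Acta1, and from 30 to 25 in Tnnt1. Only exact matches to each motif were marked. Near forms were not, such as TATATAA in the Tnnc1 stretch and the CArG-like CCATATACGG in the Acta1 stretch. An E-box was found in 7 of 7 windows, but 66.2% of all windows have one. The 2 Tnni1 windows overlap, and the E-boxes of the later one are also counted in the earlier one. No MEF2 site was found in the 7 windows, and 2.92% of all windows hold one. These matches describe letters in a short window and say nothing about binding in either library.

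Acta1, which encodes the actin of skeletal muscle thin filaments (Entrez 11459, chromosome 8, 123891758 to 123894775), had 412 FPKM in 3bKO and 10.5 FPKM in fl/fl. This was a 39.1-fold difference, or 5.29 on the log2 scale. It ranked 9th among the 628 genes by its level in 3bKO and 233rd by its level in fl/fl. The genes outside the members with the ratio nearest to that of Acta1, among those that reached 1 FPKM in 3bKO and in fl/fl, were Mylpf, the fast regulatory light chain of myosin, Myh1, a fast myosin heavy chain, and Mybpc1, a myosin-binding protein. Mylpf had 159 FPKM in 3bKO and 4.28 FPKM in fl/fl, a log2 ratio of 5.21. Myh1 and Mybpc1 had log2 ratios of 5.04 and 4.93. The likeness is a distance between 2-library ratios of 0.08, 0.25 and 0.36 on the log2 scale.

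The fast troponins were the most abundant troponins in both libraries, and their ratios lay close together. Tnnt3, fast troponin T (Entrez 21957, chromosome 7, 142498771 to 142516213), had 440 FPKM in 3bKO and 12.4 FPKM in fl/fl, the highest value of the 9 genes in either library. Tnnc2, fast troponin C (Entrez 21925, chromosome 2, 164777161 to 164779734), had 226 FPKM in 3bKO and 5.75 FPKM in fl/fl. Tnni2, fast troponin I (Entrez 21953, chromosome 7, 142441816 to 142444410), had 193 FPKM in 3bKO and 5.18 FPKM in fl/fl. The folds were 35.6 for Tnnt3, 39.3 for Tnnc2 and 37.3 for Tnni2, a span of 5.15 to 5.30 on the log2 scale that also holds the ratio of Acta1. Among the 499 genes that reached 1 FPKM in both, Tnnc2, Acta1 and Tnni2 had the 3 largest ratios, and Tnnt3 had the 5th largest.

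**Figure D1:**
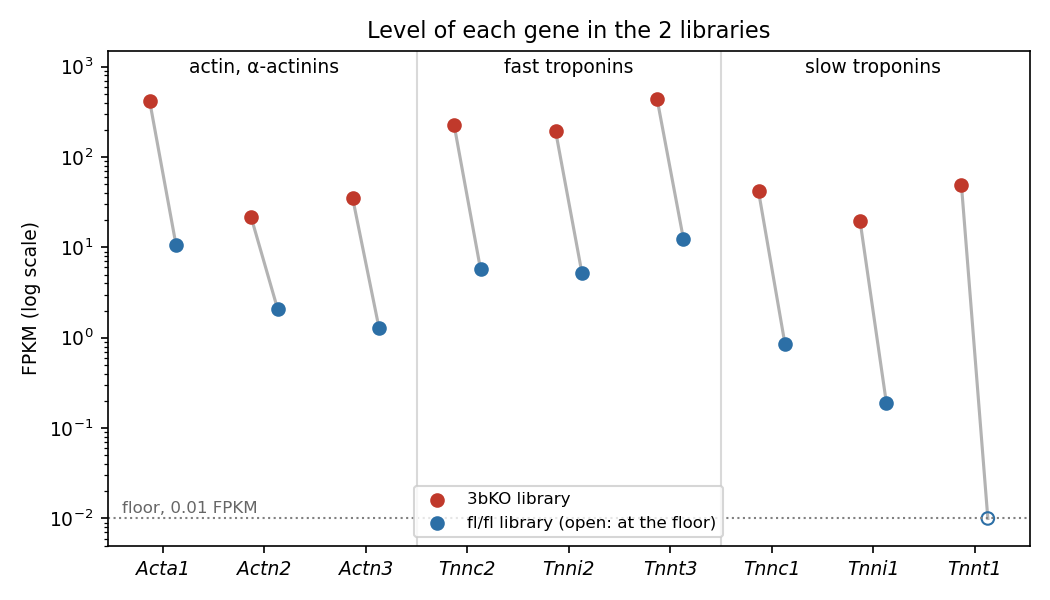
FPKM (log axis) of the 9 genes in the 3bKO library (red) and the fl/fl library (blue), with 1 point per library and a grey line joining the 2 values of a gene. All 9 red points lie between 19.8 and 440 FPKM, above their blue partners, and the open point for Tnnt1 stands at the floor of 0.01 FPKM.

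Because Acta1 and the 3 fast troponins had nearly the same ratio, their proportions to each other were nearly the same in both libraries. Such a proportion does not depend on how a library was scaled. Tnnc2 was at 0.55 of the Acta1 level in 3bKO and 0.55 in fl/fl. Tnni2 was at 0.47 of Acta1 in 3bKO and 0.49 in fl/fl, and Tnnt3 at 1.07 in 3bKO and 1.17 in fl/fl. Taking the slow and the fast form of a subunit together, troponin C was at 0.65 of Acta1 in 3bKO and 0.63 in fl/fl, troponin I at 0.52 and 0.51, and troponin T at 1.19 and 1.17. The levels of the subunits, per length of transcript, were thus unequal to each other in both libraries, with troponin T about as high as actin and troponin I lowest.

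The slow troponins were lower than the fast ones in both libraries, and their values in fl/fl were near the lower end of the table. Tnnc1, the troponin C of slow fibres and of the heart (Entrez 21924, chromosome 14, 31208312 to 31211729), had 41.7 FPKM in 3bKO and 0.86 FPKM in fl/fl, a 48.5-fold difference. Tnni1, slow troponin I (Entrez 21952, chromosome 1, 135783033 to 135810989), had 19.8 FPKM in 3bKO and 0.19 FPKM in fl/fl. The fold for Tnni1 was 104, and the rounding of the deposited values to 2 decimals alone allows 102 to 107. Its log2 ratio of 6.71 was the 3rd largest of the 605 genes above the floor in both libraries. Tnnt1, slow troponin T (Entrez 21955, chromosome 7, 4504569 to 4515975), had 48.6 FPKM in 3bKO and was listed at 0.01 FPKM in fl/fl. The table gives 3 genes this lowest value in 3bKO and 20 in fl/fl, Tnnt1 among them, so it is read as a floor and no fold is given for Tnnt1. It was the highest of the slow troponins in 3bKO, and the lowest of the 9 genes in fl/fl. Tnnt2 and Tnni3, the troponins T and I of the heart, were not among the 628 genes.

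**Figure D2:**
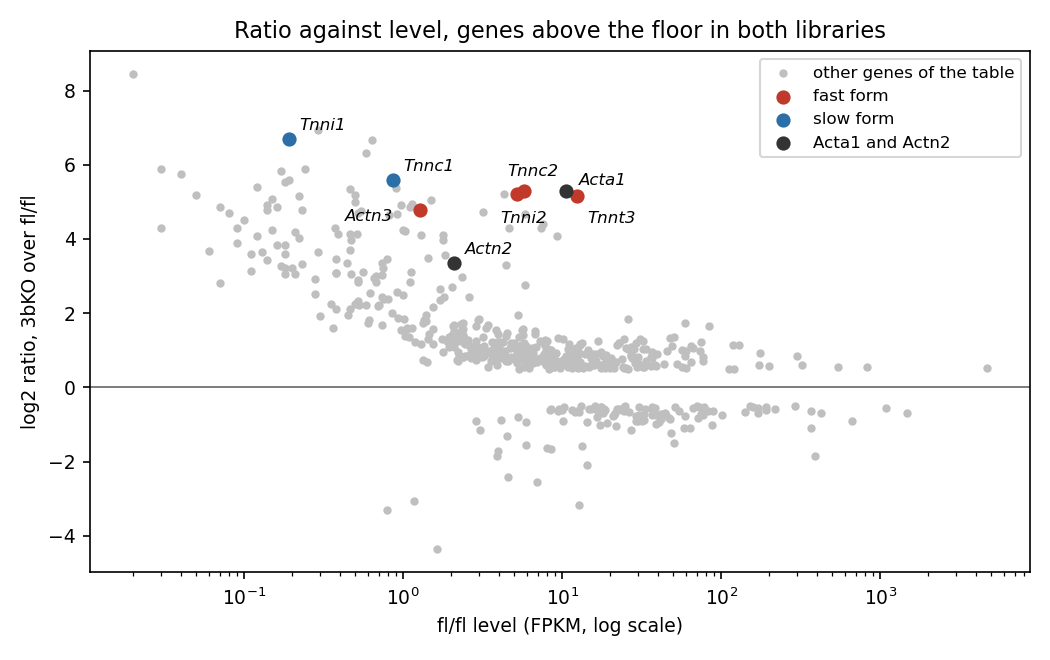
Log2 ratio of 3bKO over fl/fl against the level in fl/fl (FPKM, log axis), with 1 point for each of the 605 genes above the floor in both libraries and 8 of the 9 genes in colour. Acta1 and the fast troponins stand at log2 ratios of 5.15 to 5.30 at fl/fl levels of 5.18 to 12.4 FPKM, above other genes of like level, while Tnni1 and Tnnc1 have larger ratios at levels under 1 FPKM, where many other genes have large ratios too.

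The slow and fast forms were then set against each other within each library. The fast forms made up 88.6% of the summed troponin FPKM in 3bKO and 95.6% in fl/fl, and the slow forms 11.4% in 3bKO and 4.35% in fl/fl. The fast share by subunit was 84.4% in 3bKO and 87.0% in fl/fl for troponin C, 90.7% in 3bKO and 96.5% in fl/fl for troponin I, and 90.1% in 3bKO and 99.9% in fl/fl for troponin T, where the fl/fl value of Tnnt1 is the floor. On the log2 scale the ratio of the slow form exceeded that of the fast form by 0.30 for troponin C and by 1.48 for troponin I. This order rests on slow values under 1 FPKM in fl/fl. With 1 FPKM added to every value, the fast share was 88.4% in 3bKO and 86.6% in fl/fl. The slow forms then had the smaller log2 ratio, by 0.55 for troponin C and 0.85 for troponin I. With 0.1 FPKM added, the slow forms had the larger log2 ratio, by 0.17 for troponin C and 0.91 for troponin I. Without troponin T, the fast share was 87.2% in 3bKO and 91.2% in fl/fl. Which library had the larger fast share thus depended on values near the lower end of the scale. The fast form of every subunit was above its slow form in both libraries, so these settings could not reverse that order.

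**Figure D3:**
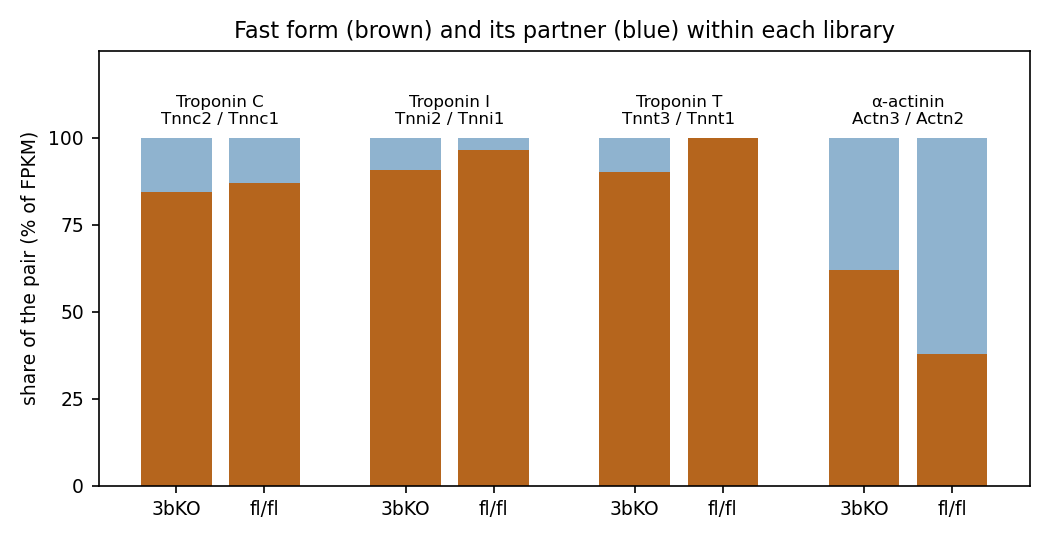
Share of each pair (% of its summed FPKM) taken by the fast form (brown) and by its partner (blue), with 3bKO on the left and fl/fl on the right of each pair of bars. Fast troponins took 84.4% or more of each subunit in both libraries, and Actn3 took 62.0% of the muscle α-actinins in 3bKO and 38.0% in fl/fl.

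The α-actinins had smaller ratios than actin and the troponins, and unlike the troponins their order turned between the libraries. Actn3, the fast-fibre α-actinin (Entrez 11474, chromosome 19, 4861216 to 4877909), had 35.02 FPKM in 3bKO and 1.28 FPKM in fl/fl, a 27.4-fold difference. Actn2 (Entrez 11472, chromosome 13, 12269426 to 12340732) had 21.5 FPKM in 3bKO and 2.09 FPKM in fl/fl, a 10.3-fold difference and the smallest of the 8 ratios. Actn3 was at 1.63 times the level of Actn2 in 3bKO and at 0.61 times in fl/fl. The log2 ratio of Actn3 exceeded that of Actn2 by 1.41, and by 1.12 with 1 FPKM added to every value. Together they were at 0.14 of the Acta1 level in 3bKO and 0.32 in fl/fl. In fl/fl Actn2 thus stood high beside Acta1, and Actn2 ranked 79th of the 605 ratios while Actn3 ranked 33rd.

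Across the 8 genes above the floor the log2 ratios ran from 3.36 for Actn2 to 6.71 for Tnni1, with a median of 5.26, beside a median of 0.95 over the 605 genes of the table above the floor. The table median was 12.2 FPKM in 3bKO and 5.88 FPKM in fl/fl, a shift of 1.05 on the log2 scale. Relative to that shift the 8 log2 ratios ran from 2.31 to 5.65. FPKM are relative within a library, and the table holds only selected genes with a log2 ratio of at least 0.50 in size, so a scaling over all genes could not be made.

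Other thin filament genes were higher in 3bKO as well, over a wider span. Of 12 such genes, 10 were in the table, and 9 of them were more than 2-fold higher, beside 47.1% of the table. Their median log2 ratio was 3.79, with a lowest of 0.73 and a highest of 5.18. Tpm1, a tropomyosin of fast muscle that other cells also make, had 261 FPKM in 3bKO and 83.3 FPKM in fl/fl. Tpm2, another muscle tropomyosin, had 157 FPKM in 3bKO and 9.32 FPKM in fl/fl. Nrap, which takes part in myofibril assembly, had 18.2 FPKM in 3bKO and 0.50 FPKM in fl/fl, and Klhl41, which stabilises thin filament proteins, had 16.2 FPKM in 3bKO and 1.44 FPKM in fl/fl. Neb, the giant protein nebulin that runs along the filament, had a log2 ratio of 4.13. Tmod1, which caps the pointed end of actin filaments also in red blood cells, was the only one under 2-fold, at 11.3 FPKM in 3bKO and 6.83 FPKM in fl/fl. The tropomyosin Tpm1 thus had a log2 ratio of 1.65, against 5.15 to 5.30 for the fast troponins and actin with which its protein assembles, and its fl/fl level of 83.3 FPKM was above the sum of all 9 genes there.

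Genes whose proteins bind α-actinin or sit with it at the Z-disc were all higher among those in the table. Of 18, 16 were in the table and 16 were more than 2-fold higher, beside 47.1% of the table. The 14 above the floor had a median log2 ratio of 3.91, and ran from 1.61 for Synpo2 to 5.60 for Xirp2. Tcap, which links titin filaments at the Z-disc, had 83.7 FPKM in 3bKO and 3.16 FPKM in fl/fl. Ldb3, a PDZ protein that binds α-actinin, had 30.7 FPKM in 3bKO and 1.79 FPKM in fl/fl, and Myot, or myotilin, had 29.3 FPKM in 3bKO and 0.97 FPKM in fl/fl. Myoz1, a calsarcin of fast fibres, had 18.6 FPKM in 3bKO and 0.46 FPKM in fl/fl. Csrp3 and Myoz2, which are known from slow and cardiac muscle, were at 10.4 and 9.61 FPKM in 3bKO and were both listed at the floor in fl/fl, as Tnnt1 was.

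The fibre-type genes outside the troponins were set beside them in the same way. All 9 fast-fibre genes were in the table and more than 2-fold higher in 3bKO, beside 47.1% of the table, with a median log2 ratio of 4.66 and a span of 1.74 to 6.33. Of 8 slow-fibre genes 5 were in the table, all more than 2-fold higher beside the same 47.1%, and the 4 above the floor had a median of 5.80 and a span of 2.48 to 6.95. Myh7, the slow myosin heavy chain, had 35.8 FPKM in 3bKO and 0.29 FPKM in fl/fl, and Myh4, the heavy chain of the fastest fibres, had 142 FPKM in 3bKO and 7.30 FPKM in fl/fl. Myl3, a slow light chain, was at 21.5 FPKM in 3bKO and at the floor in fl/fl. As for the troponins, slow genes other than Mybpc1 and Casq2 were under 1 FPKM in fl/fl. So were the fast-fibre genes Myh2 and Mybpc2, at 0.58 and 0.54 FPKM. The medians of these lists were not computed with 1 FPKM added, so their order was not checked against low values. Myl1, a fast light chain, had 199 FPKM in 3bKO and 59.4 FPKM in fl/fl, a log2 ratio of 1.74. In fl/fl Myl1 was thus far above Acta1, whereas in 3bKO it was below it.

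**Figure D4:**
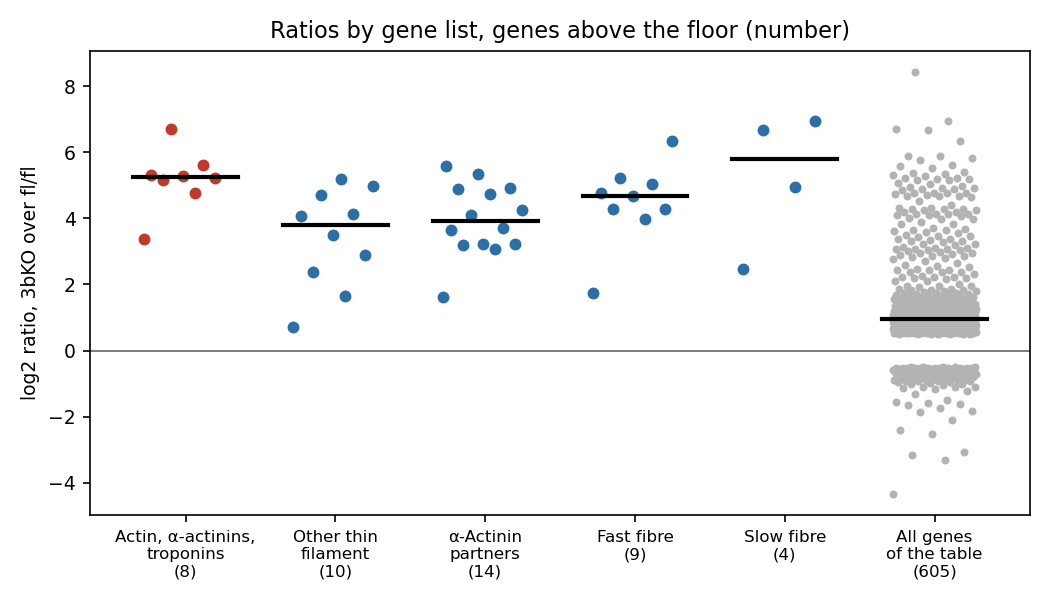
Log2 ratio of 3bKO over fl/fl for the genes above the floor in each list, with 1 point per gene, black lines at the medians and the number of genes in brackets. The medians were 5.26 for actin, α-actinins and troponins, 3.79 for other thin filament genes, 3.91 for α-actinin partners, 4.66 for fast-fibre genes, 5.80 for slow-fibre genes and 0.95 for the whole table.

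Skeletal muscle markers moved with these genes, and the 4 of 11 brown adipocyte markers that could be read moved the other way. Of 15 skeletal muscle markers, 15 were in the table, and their summed level was 1173 FPKM in 3bKO and 173 FPKM in fl/fl. Of these, 8 also stand on the lists above, and the other 7 summed to 436 FPKM in 3bKO and 92.2 FPKM in fl/fl, with 6 of them more than 2-fold higher, beside 47.1% of the table. Ckm, the muscle creatine kinase, had 161 FPKM in 3bKO and 7.53 FPKM in fl/fl, whereas Mb, or myoglobin, had 144 FPKM in 3bKO and 73.3 FPKM in fl/fl. Of 11 brown adipocyte markers, 4 were in the table and all were lower in 3bKO, beside 116 of the 628 genes, at a sum of 136 FPKM in 3bKO and 247 FPKM in fl/fl. They were Dio2, Slc27a2, Ppargc1a and Kcnk3, with log2 ratios of -1.22, -1.03, -0.89 and -0.52. The other brown adipocyte markers were not among the genes analysed, which leaves their levels unknown. They include Ucp1 and Cidea, which define the brown adipocyte, so the tissue label could not be checked on Ucp1 and Cidea. Of 7 smooth muscle markers, 7 heart muscle markers, 4 muscle progenitor markers and 7 genes of developing muscle, such as Myod1, Myog and Myh3, 0 were in the table, which leaves their levels unknown. The part of these marker differences in the values of actin, the α-actinins and the troponins was not tested.

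Reads of similar genes may have been divided between them by the authors' counting, so paralogs were compared over their coding sequences in GENCODE vM1. The slow and fast troponins were well apart, with 70.1% identical bases for Tnnc2 and Tnnc1, 67.9% for Tnni2 and Tnni1 and 69.4% for Tnnt3 and Tnnt1, and no exact shared run longer than 22 bases. Actn3 and Actn2 had 75.2% identical bases and a longest shared run of 51 bases. Acta1 and Actc1, the actin of the heart, were nearer to each other, with 86.2% identical bases and a longest shared run of 29 bases. Acta1 and Actg1, an actin of most cell types, had 83.8% identical bases and a longest shared run of 59 bases. No actin other than Acta1 and no α-actinin other than Actn2 and Actn3 was in the table, so their levels were not compared here, and the value of Acta1 is the less certain for it.

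The 9 genes lie on 7 chromosomes. Tnni2 and Tnnt3 are the closest, 54361 bases apart on chromosome 7 of mm10, with Lsp1, a leukocyte protein, between them. Tnnt1 lies on the same chromosome, 2330 bases from Tnni3, and Tnni1 lies 25326 bases from Tnnt2 on chromosome 1. Neither Tnni3 nor Tnnt2 nor Lsp1 was among the 628 genes. Within 100000 bases of the 9 genes the annotation has 61 other protein-coding genes, and 2 of them were in the table. Those were Stab1, a scavenger receptor, near Tnnc1, at 13.9 FPKM in 3bKO and 7.82 FPKM in fl/fl, and Pltp, the phospholipid transfer protein, near Tnnc2, at 67.7 FPKM in 3bKO and 43.4 FPKM in fl/fl. Their log2 ratios of 0.83 and 0.64 were far below those of the neighbouring troponins. The share of all annotated genes that is in the table was not computed. The count of 2 among 61 is therefore not read as a result about these places.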

How the data were processed

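Per the labels, mRNA of brown adipose tissue was enriched with oligo(dT) beads and sequenced on an Illumina HiSeq or another sequencer. The submitters' processing notes name RSEM and mm10, with versions not given in the sources used here. The deposited values are FPKM calculated by the authors, in 1 table of 628 genes with 1 column per library, of which 627 matched a RefSeq symbol of GRCm38.p6. The filter that chose these genes and the library depths are not given in the sources used here, so no counting interval was computed.

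Each 3bKO value was divided by its fl/fl value, and genes more than 2-fold higher were counted. No test was run, since each genotype has 1 library. The members and 12 gene lists were chosen with earlier results of these data known. The genes named are all members, up to 4 per list by level in 3bKO, and the 3 nearest to Acta1 in ratio; any other was chosen after its values were seen. Alternatives were a threshold of 1.5-fold or 4-fold, a floor of 1 FPKM in both columns or in the higher, pseudocounts of 0.1 and 1, and division by the table median. Ratios and motif matches were tested on simulated data. Python 3.11.15, NumPy 2.4.6, pandas 2.3.3, Biopython 1.88 and Matplotlib 3.10.9 were used.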

Additional observations from a re-analysis of the deposited data

How the results depend on the processing

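The count of members more than 2-fold higher in 3bKO was 9. It was also 9 at 1.5-fold, which the count at 2-fold fixes in advance, and 9 at 4-fold. With a pseudocount of 0.1 or 1 FPKM it was 9, as with a minimum of 1 FPKM in the higher library. It was 6 with a minimum of 1 FPKM in both. Over the whole table, 296 genes were higher by more than 2-fold, 468 at 1.5-fold, 148 at 4-fold and 174 under a minimum of 1 FPKM in both, and the listed genes had 45 and, with that minimum, 18; these changes follow from how many genes each setting admits. The fast share of troponin FPKM in 3bKO minus that in fl/fl was -7.00 percentage points, and 1.78 with a pseudocount of 1 FPKM. It was -5.93 with 0.1 FPKM and -4.03 without troponin T, the last 2 chosen after seeing the data. The change of sign cannot decide the order, because 1 FPKM weighs more on the smaller troponin sum of fl/fl. The log2 ratio of slow minus fast was 0.30 for troponin C and 1.48 for troponin I. It was 0.17 and 0.91 with a pseudocount of 0.1 FPKM, and -0.55 and -0.85 with 1 FPKM. These pseudocount differences were also chosen after seeing the data. Slow values in fl/fl are all under 1 FPKM. The 8 log2 ratios ran from 3.36 to 6.71, and from 2.86 to 5.16 with a pseudocount of 1 FPKM. After division by the table median they ran from 2.31 to 5.65. A pseudocount cannot change the sign of a log2 ratio. The median shift of 1.05 was smaller than the smallest of the 8, so that division could not change a sign either. No paired analysis was possible because each genotype has 1 library, and no library could be left out.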
